A study of Homo sapiens with 12 samples.

Results

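Selenoproteins are proteins that carry selenocysteine, and 10 human genes of this class with called coding ORFs are described here: GPX4, GPX1, TXNRD1, SELENOF, SELENOK, SELENOM, SELENOS, SELENOT, SELENOH and SELENOW. They were chosen by name, as genes whose ORFs of the coding types (CDS, Trunc or Variant, the last 2 being shortened or altered forms of an annotated coding sequence) lie in hg38 inside the RefSeq gene of that symbol. They are 10 of 6526 genes or unnamed gene identifiers with a coding ORF. HEK293 cells, an established human embryonic kidney line with no engineered allele named in the labels, were kept in log phase in medium with serum, deprived of serum for 2 h, or held for 1 h in a salt solution with vitamins and serum but no amino acids. Ribosome footprints of 17 to 34 nt, the mRNA pieces that a ribosome shields from nuclease, were sequenced from pooled monosome fractions (mRNA with 1 ribosome) and pooled polysome fractions (mRNA with several). All lysates held cycloheximide at 100 ug per ml. Each of the 6 groups had 2 libraries, A and B, and no label says that these came from separate cultures, so every p measures the spread between these libraries only.

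Selenocysteine is inserted at an in-frame UGA, a codon that otherwise ends translation. Recoding needs a hairpin in the 3' untranslated region of the mRNA, a protein that binds it, a dedicated elongation factor and a charged selenocysteine tRNA, and a ribosome that fails to recode stops at the UGA and yields a truncated peptide. The mRNAs of GPX1, SELENOW and SELENOH are known as sensitive to selenium supply, while those of TXNRD1 and GPX4 are known as better protected.

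The monosome libraries held 119946 to 346200 coding footprints and the polysome libraries 1493881 to 5313462. Of the 6526 units 4851 had enough counts to be tested, and all 10 selenoprotein genes were among them, SELENOW only through its monosome counts in log phase. Levels are given in CPM (footprints scaled to a fixed total of coding footprints per library) after TMM scaling. A higher CPM is therefore a larger share of that library, more mRNA cannot be told apart from more ribosomes per mRNA, and in bulk lysates fewer cells cannot be told apart from less RNA per cell; no mRNA libraries were analysed here. Of 6 markers of this line, VIM, NEFL, NEFM and KRT8 had a coding ORF, with a summed level of 739.8 to 7461 CPM per library, and KRT18 and PAX2 had none. NEFM made up most of that sum, at 485 to 6123 CPM, while KRT8 stood at 0 to 5.48 CPM. Of 7 markers of connective tissue, blood and liver, 5 had no coding ORF, and COL1A1 and HBA1 together reached at most 8.96 CPM in any library.

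An in-frame stop inside the coding sequence ended a called ORF in most of the genes. It is taken for the selenocysteine UGA from its position alone, since no sequence was read. In 4 genes the annotation leaves the selenocysteine codon out of the coding sequence as a gap of 3 nt. Only 6 such gaps occurred in coding ORFs of the whole table, and the 4 at which another ORF stopped were those in GPX4, SELENOF, SELENOH and TXNRD1. In GPX4, SELENOF and SELENOH the ORF that was kept for the gene's sum spans the stop. In GPX1, SELENOK and SELENOT no gap was listed, but an in-frame coding ORF followed the stop. For 7 of 10 genes the table thus showed an ORF ending at an in-frame stop within the coding sequence. For SELENOW, SELENOM and SELENOS no in-frame ORF was listed after the stop, and the reading frame beyond it was not determined here.

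In GPX4, the glutathione peroxidase that reduces lipid hydroperoxides in membranes, this stop lies at chr19:1105403-1105405 on the plus strand, after 63 sense codons of an ORF with the start codon CTG. In GPX1, the cytosolic glutathione peroxidase, it lies at chr3:49358132-49358134 on the minus strand, after 11 sense codons. The stop of TXNRD1, the cytosolic thioredoxin reductase, lies at chr12:104348413-104348415, after 584 sense codons and next to the end of the protein. In SELENOF, an endoplasmic reticulum (ER) protein that works with a glycoprotein folding sensor, it lies at chr1:86880690-86880692 on the minus strand after 95 sense codons.

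In SELENOH, a nucleolar redox protein, the stop lies at chr11:57741816-57741818 on the plus strand, and the ORF called up to it had 6 sense codons. The corresponding stop of SELENOT, a thioredoxin-like protein of the ER membrane, lies at chr3:150622392-150622394 after 20 sense codons. In SELENOK, an ER membrane protein with its selenocysteine near the C-terminus, it lies at chr3:53885831-53885833 after 91 sense codons. All of these positions are within annotated coding sequence, and the counts of sense codons are those of the called ORF, which can start downstream of the annotated start.

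Monosomes and polysomes differed widely for these genes. SELENOW was admitted to the tests only by the group in which it is high, so it is described apart and counted in none of the following. Over the 3 conditions 5 of the other 9 genes were higher in monosomes (GPX4, GPX1, SELENOH, SELENOM and SELENOK), against 17.1% of all tested units, and 1, TXNRD1, was lower, against 21.7% (edgeR's quasi-likelihood test, adjusted p under 0.05). The median log2 monosome over polysome ratio was 1.31 over the 9 genes and -0.18 over all 4851 units. The libraries of the fractions did not overlap for GPX4, GPX1 and SELENOH, all above, and for TXNRD1, below; 9.71% of all units lay wholly above in this way and 11.9% wholly below.

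**Figure D1:**
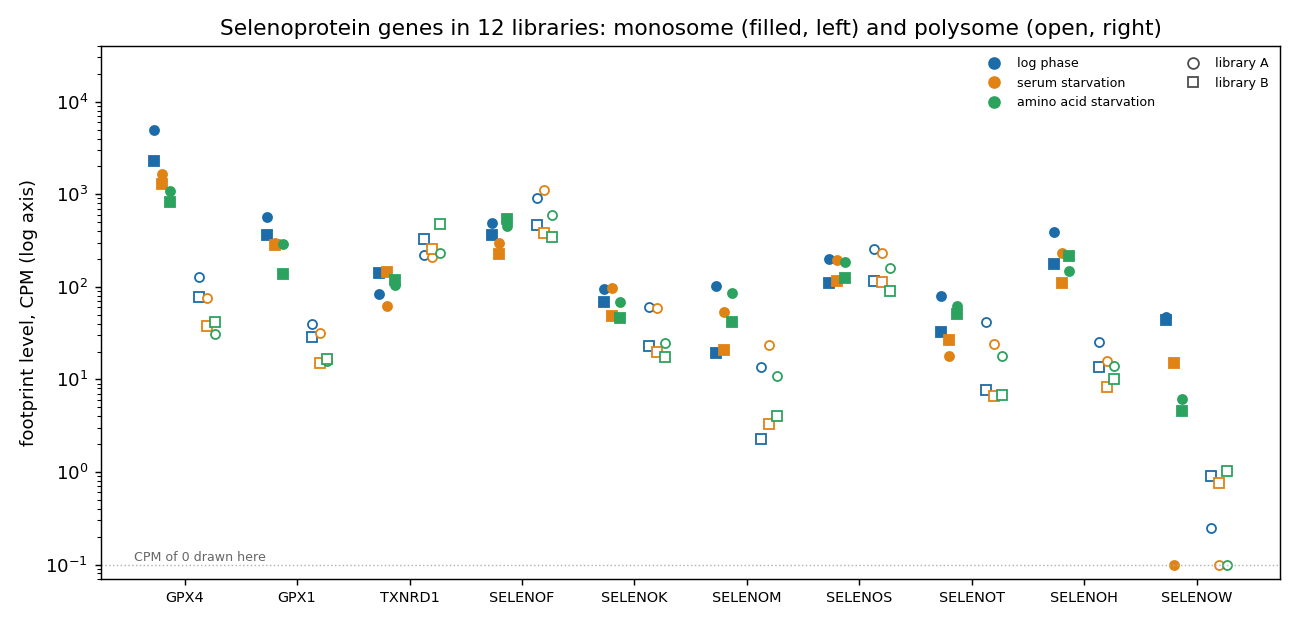
Footprint level in CPM on a log axis for each of the 10 genes in each of the 12 libraries, monosome filled and polysome open, coloured by condition and shaped by library letter. GPX4 lies between 817 and 4902 CPM in monosomes and between 31.3 and 128 CPM in polysomes, while TXNRD1 is higher in every polysome library than in any monosome library.

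GPX4 leaned most to monosomes. It stood at 4902 and 2290 CPM in the log phase monosome libraries A and B, at 1638 and 1300 after serum starvation, and at 1093 and 817 after amino acid starvation. Its polysome levels were 128 and 77.6 CPM in log phase, 75.5 and 37.4 after serum starvation, and 31.3 and 41.2 after amino acid starvation. Every monosome library was thus far above every polysome library, and log phase was the highest condition in both fractions. The log2 ratio over the 3 conditions was 4.85 (SE 0.39, adjusted p = 1.05e-06), and 30 of the 4851 units had a larger one.

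GPX1 showed the same separation at lower levels. Its monosome libraries held 567 and 359 CPM in log phase, 301 and 281 after serum starvation, and 290 and 138 after amino acid starvation. Its polysome libraries held 39.4 and 28.9, 31.8 and 15.1, and 15.6 and 16.5 CPM in the same order. The lowest monosome library stood above the highest polysome library, with a log2 ratio of 3.70 (SE 0.33, adjusted p = 2.44e-06).

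TXNRD1 lay the other way. Its monosome libraries held 83.0 and 143 CPM in log phase, 62.0 and 143 after serum starvation, and 105 and 119 after amino acid starvation, against 223 and 328, 209 and 254, and 232 and 481 in polysomes. The fractions did not overlap, and the log2 ratio was -1.35 (SE 0.32, adjusted p = 0.00468). Library B was above library A in all 6 groups for this gene.

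The genes of small redox proteins with a thioredoxin-like fold outside the ER are SELENOH and SELENOW. SELENOH held 390 and 175 CPM in log phase monosomes, 230 and 111 after serum starvation, and 148 and 216 after amino acid starvation, against 25.3 and 13.5, 15.9 and 8.19, and 13.8 and 10.1 in polysomes. No library overlapped, and the log2 ratio was 3.85 (SE 0.36, adjusted p = 3.44e-06).

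SELENOW, which encodes a small protein abundant in muscle, rested on few footprints. Its ORF of 57 nt held 46.9 and 43.8 CPM in log phase monosomes, 0 and 14.9 after serum starvation, and 6.17 and 4.59 after amino acid starvation, and at most 1.01 CPM in any polysome library. That is 36 footprints in all monosome libraries and 9 in all polysome libraries, or a level 48.6 times as high in monosomes (95% counting interval 23.0 to 115). In log phase alone the ratio was 94.1 (29.2 to 483), after serum starvation 26.0 (5.06 to 168), and after amino acid starvation 8.12 (0.678 to 70.9), the last interval reaching below 1. These intervals are exact and cover counting error only, and as log phase monosomes admitted the gene they are a description and no test.

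Among the genes of ER proteins the direction was mixed. SELENOM, an ER-lumen protein with a thioredoxin-like fold, held 101 and 19.2, 53.1 and 20.9, and 86.4 and 41.3 CPM in log phase, serum-starved and amino acid-starved monosomes, against 13.6 and 2.26, 23.3 and 3.33, and 10.8 and 4.05 in polysomes. Within each letter the monosome library was the higher in every condition, while the B libraries of log phase and serum-starved monosomes lay below the A library of serum-starved polysomes. The log2 ratio was 2.42 (SE 0.62, adjusted p = 0.00754), and without log phase monosome library A it was 1.76 (adjusted p = 0.0544).

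SELENOK held 45.9 to 97.4 CPM in monosomes, with a median of 68.2, and 17.5 to 61.0 in polysomes, with a median of 23.8. The fractions overlapped, and its log2 ratio of 1.05 (SE 0.39, adjusted p = 0.0431) was near the threshold. The adjusted p rose above 0.05 when any of the 6 monosome libraries or the B library of log phase or amino acid-starved polysomes was left out, and reached 0.190 without serum-starved monosome library A.

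SELENOT ranged from 17.7 to 79.4 CPM in monosomes and from 6.66 to 42.2 in polysomes. Its log2 ratio was 1.31 (SE 0.52, adjusted p = 0.0559), and with the library letter as a replicate block it was 1.58 (adjusted p = 0.000347). For SELENOF the ranges were 227 to 542 CPM in monosomes and 342 to 1109 in polysomes, and the log2 ratio was -0.70 (SE 0.34, adjusted p = 0.119), or -0.60 (adjusted p = 0.0432) with the replicate block. The block therefore brought the counts to 6 higher and 2 lower of 9, against 24% and 30.1% of all units under the same model.

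SELENOS, a membrane protein of the ER pathway that removes misfolded proteins, was level between the fractions. It held 110 to 202 CPM in monosomes and 90.4 to 254 in polysomes, with a log2 ratio of -0.04 (SE 0.34, 95% interval -0.71 to 0.62, adjusted p = 0.927).

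Within single conditions, with 2 libraries a group, GPX4, GPX1 and SELENOH were higher in monosomes in all 3. They were the only 3 of the 9 called. In log phase 6.33% of all units were called higher and 4.99% lower, after serum starvation 4.35% and 2.51%, and after amino acid starvation 5.73% and 1.59%. The GPX4 log2 ratio was 5.12 (SE 0.69) in log phase, 4.70 (SE 0.68) after serum starvation and 4.71 (SE 0.68) after amino acid starvation.

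With the replicate block, 6 of the 9 were higher and 1 lower in log phase (16.5% and 17.8% of all units), 4 higher and 2 lower after serum starvation (14.6% and 14.2%), and 6 higher and 1 lower after amino acid starvation (15.4% and 13.6%). TXNRD1 was lower in each condition in that model (log2 -1.31, -1.19 and -1.61; adjusted p = 0.0114, 0.0317 and 0.00453), and SELENOM was higher in each (log2 2.89, 1.79 and 3.11; adjusted p = 0.000137, 0.0319 and 0.000257). The block also called SELENOK and SELENOT higher in log phase (log2 1.07 and 1.32, adjusted p = 0.0462 and 0.0441) and after amino acid starvation (1.39 and 2.32, adjusted p = 0.0368 and 0.0043). SELENOF passed lower after serum starvation only (log2 -1.37, adjusted p = 0.0205), and its value was -0.63 in log phase and 0.20 after amino acid starvation.

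**Figure D2:**
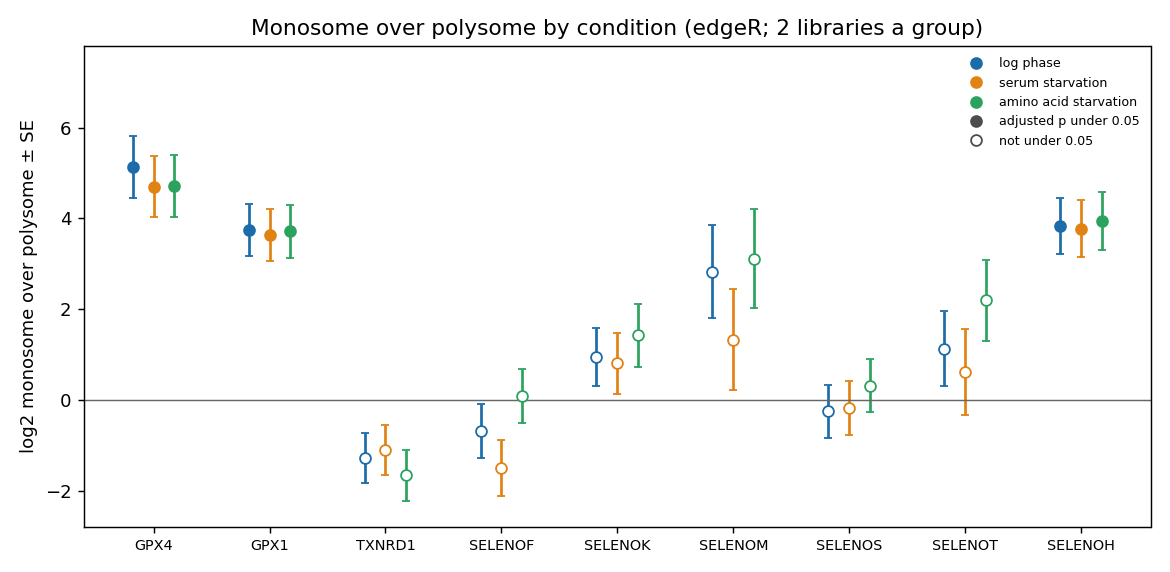
Log2 monosome over polysome ratio with its standard error for 9 genes in log phase, serum starvation and amino acid starvation, from the model without a block; filled points have an adjusted p under 0.05. SELENOW is left out because its polysome groups hold 3 footprints each. GPX4, GPX1 and SELENOH pass in all 3 conditions, and TXNRD1 lies below 0 in all 3 without passing.

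Per kilobase of called coding ORF, GPX4 had the highest mean level in monosomes, 3844 CPM per kb (SD 2886, n = 6 libraries over the 3 conditions), followed by SELENOF at 1066, GPX1 at 681, SELENOH at 608, SELENOM at 577, SELENOW at 341, SELENOS at 324, SELENOK at 249, SELENOT at 223 and TXNRD1 at 62.2. Only SELENOF against GPX1 and SELENOT against TXNRD1 differed, among neighbours in that order, by more than the larger SD. In polysomes SELENOF led with 1708 CPM per kb (SD 835, n = 6), followed by SELENOS at 335, TXNRD1 at 164, GPX4 at 125, SELENOK at 121, SELENOM at 103, SELENOT at 87.6, GPX1 at 51.8, SELENOH at 41.6 and SELENOW at 8.57. There SELENOF against SELENOS, SELENOS against TXNRD1 and SELENOH against SELENOW differed by more than the larger SD, and the other neighbours did not. GPX4, the leading gene in monosomes, thus stood below SELENOF, SELENOS and TXNRD1 in polysomes.

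The number of sense codons from the called start to the stop is set beside the ratio here as a description, with no test. This number is that of the called ORF ending at the stop. In GPX4, SELENOH and SELENOF the ratio comes from another ORF, which spans the stop and has 173, 115 and 123 sense codons. In GPX1, SELENOT and SELENOK the ratio sums the ORFs before and after the stop. The number of codons reached at most 63 in GPX4, GPX1 and SELENOH, whose log2 ratios ran from 3.70 to 4.85. It reached 95 and 584 sense codons in SELENOF and TXNRD1, whose ratios were -0.70 and -1.35. SELENOM, with 30, had 2.42 and SELENOS, with 159, had -0.04. For these 2 genes the stop is only the end of the called ORF and was not shown to lie within the coding sequence. SELENOT, with 20 sense codons, had 1.31 and SELENOK, with 91, had 1.05, and within the first set GPX4 had both the most codons and the highest ratio, so the order was not strict. Kept ORF length also moved with the ratio over all genes: the median log2 ratio was 0.66 for 847 units under 300 nt, -0.25 for 1343 units of 300 to 600 nt and -0.34 for 2661 longer ones. GPX4 (522 nt), GPX1 (474 nt), SELENOH (348 nt), SELENOF (372 nt) and SELENOS (480 nt) all fall in the middle class, of which 19.1% were called higher and 22.3% lower. SELENOM, SELENOK, SELENOT and SELENOW fall in the class under 300 nt, of which 31.9% were called higher and 6.61% lower. The part of ORF length in the members' ratios was not tested.

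Footprint density was compared between the called ORF that ends at the in-frame stop and the called ORF after it. It was higher in the former in 5 of the 6 genes with an in-frame ORF on either side. The former can be a short stretch beside the stop, so these densities do not describe all coding sequence before it. Over all libraries GPX4 held 43.7 footprints per sense codon before the stop and 15.5 after it. GPX1 held 34.5 before, over 11 codons, and 3.92 after. SELENOH held 55.8 before, over its 6 codons, and 2.42 after. The 109 other codons of the SELENOH ORF that spans the stop, on both sides of it, held 2.19 per codon. In SELENOT the values were 14.0, over 20 codons, and 2.75, and in SELENOF 118, over 95 codons, and 34.1. SELENOK had 1 sense codon in the ORF after the stop, with 36.8 footprints, against 7.82 per codon before.

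Within the part before the stop, footprints were also crowded near it. The last 26 of 63 sense codons of GPX4 held 81.5% of the footprints of its ORF up to the stop. In SELENOF the last 6 of 95 held 11.0%. In SELENOH the last 6 sense codons held 58.4% of all footprints of an ORF that spans the stop and has 109 other codons. By library that share was 78.4 and 74.2% in log phase monosomes, 78.8 and 65.2% after serum starvation and 88.4 and 88.6% after amino acid starvation. In polysomes it was 36.2 and 17.4%, 46.7 and 38.6%, and 39.7 and 27.3%. All monosome libraries were above all polysome libraries. How many other genes separate in this way was not counted. These last 6 codons are the called ORF ending at the stop, so their footprints also enter the share after the stop below.

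For 6 genes the footprints of the called ORF that ends at the stop and of the called ORF after it were added up, and the part of that sum in the later ORF is called the share after the stop. It leaves out codons that neither ORF covers: the later ORF begins 101 codons from the stop in SELENOT, 13 in SELENOH, 12 in SELENOF, 9 in GPX1 and 1 in GPX4 and SELENOK. The share was compared between the fractions by an exact permutation test, two-sided, in which the monosome and polysome labels were exchanged inside each condition. With 216 assignments it cannot give a p below 0.00926. It was lower in monosomes at p under 0.05 in 3 of 6 genes (SELENOH, SELENOT and GPX1), and in 4, GPX4 being added, when labels were exchanged only within pairs of 1 condition and letter (exact permutation, smallest possible p 0.0312). As a background, 902 other genes with a nested in-frame ORF of 30 to 70% of the length and at least 200 footprints were split at that ORF's start. Of these, 12.6% were lower and 12.6% higher in monosomes, or 9.2% and 9.98% with exchange within pairs. The median difference was -0.33 percentage points, with quartiles of -6.01 and 6.33. This split leaves no gap, and its parts are less unequal than in some members. The later ORF has 145 sense codons beside 11 in GPX1, 65 beside 6 in SELENOH and 1 beside 91 in SELENOK. These percentages are therefore not the rate for the members' measure. How many of the 902 genes separate without overlap was not counted.

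In SELENOH the share after the stop was 12.7% ± 9.5 in monosomes and 56.4% ± 12.0 in polysomes (SD, n = 6 libraries each), a difference of -43.7 points (exact permutation p = 0.00926). By library it was 5.27 and 19.3% in log phase monosomes, 10.9 and 28.7% after serum starvation, and 5.33 and 6.70% after amino acid starvation, against 60.4 and 75.8%, 42.2 and 54.2%, and 45.9 and 59.7% in polysomes. The highest monosome value lay below the lowest polysome value. The counts were small after the stop, with 32.5 footprints in all monosome libraries and 124.5 in all polysome libraries.

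In SELENOT it was 10.1% ± 9.4 in monosomes and 38.6% ± 14.5 in polysomes, a difference of -28.5 points (exact permutation p = 0.00926, n = 6 each). The monosome libraries held 13.8 and 18.2%, 0 and 6.74%, and 22.1 and 0% in log phase, serum starvation and amino acid starvation, against 30.9 and 47.9%, 32.5 and 63.8%, and 31.5 and 25.2% in polysomes. The fractions did not overlap, but only 8 footprints lay after the stop in all monosome libraries together.

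The GPX1 share was 53.2% ± 14.2 in monosomes and 72.2% ± 13.7 in polysomes, a difference of -19.0 points (exact permutation p = 0.0278, n = 6 each). Monosome libraries held 42.9 and 47.4%, 33.5 and 62.4%, and 61.8 and 71.1%, against 75.5 and 66.1%, 49.4 and 72.5%, and 79.7 and 90.0% in polysomes. The fractions overlapped, and the monosome value was the lower in 6 of 6 pairs of 1 condition and letter. Without serum-starved monosome library A the difference was -14.2 points (exact permutation p = 0.0926), and without serum-starved polysome library B it was -15.2 points (exact permutation p = 0.102).

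GPX4 passed only in the paired test. Its share after the stop was 38.6% ± 11.0 in monosomes and 47.8% ± 12.9 in polysomes, a difference of -9.15 points (exact permutation p = 0.25, n = 6 each). It was lower in monosomes in 6 of 6 pairs, and with exchange within pairs the exact permutation p was 0.0312, the smallest that test can give. The B library had the larger share in every group, 46.8 against 35.3% in log phase monosomes and 57.5 against 37.8% in log phase polysomes. The SELENOF share was 15.8% ± 3.2 in monosomes against 16.6% ± 5.3 among the polysome libraries (exact permutation p = 0.778, n = 6 each). Its ORF after the stop is listed as a downstream ORF. With ORFs of the coding types alone the SELENOF share was 5.50% ± 1.7 in monosomes and 11.3% ± 8.9 in polysomes. SELENOK, with its 1 codon, had 8.17% ± 4.9 and 3.11% ± 3.3 (exact permutation p = 0.0926, n = 6 each).

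**Figure D3:**
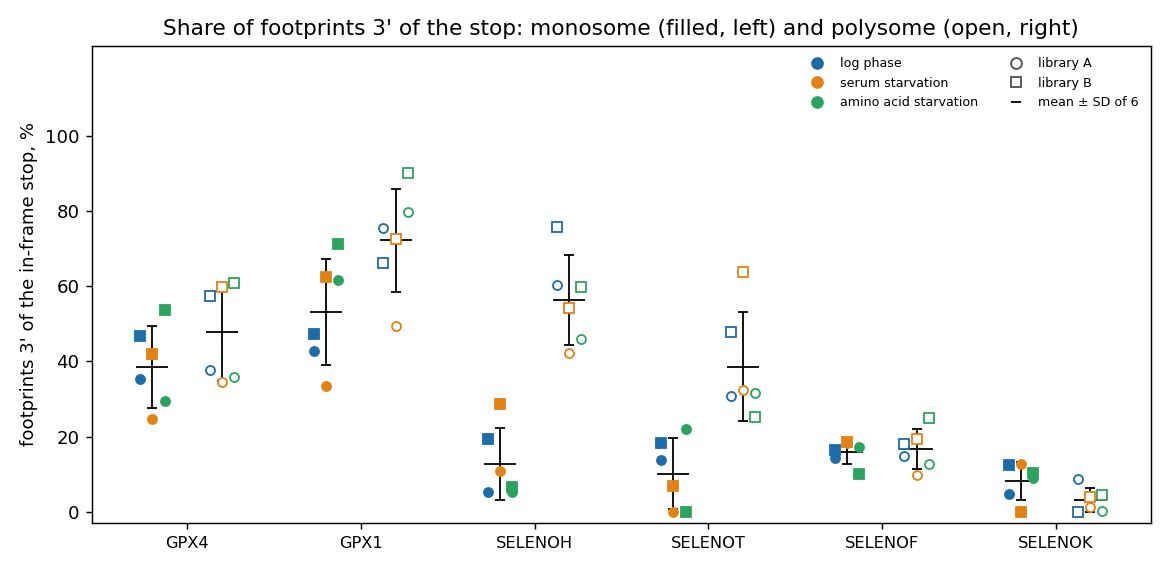
Share after the stop in each of the 12 libraries for 6 genes, monosome filled and polysome open, with mean and SD of 6 libraries. It is the percentage in the called ORF after the in-frame stop of the footprints in that ORF and the called ORF ending at the stop. Codons that neither ORF covers are left out. In SELENOH and SELENOT all monosome libraries lie below all polysome libraries. In SELENOF, whose later ORF is listed as a downstream ORF, the means are 15.8 and 16.6%. With ORFs of the coding types alone, not drawn, they were 5.50 and 11.3%.

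The ORFs before and after the stop were also set against the polysome level one by one, with no test. By the CPM of whole units, 9.71% of all units had every monosome library above every polysome library. For parts of genes this was not counted. In SELENOH the part before the stop held 169 CPM in monosomes and 5.08 in polysomes on average, a ratio of 33.2 without overlap, and the part after it 20.1 and 6.58 CPM, a ratio of 3.05 with overlap. The SELENOT part before the stop held 39.7 and 11.6 CPM, and the part after it 5.33 and 6.02 CPM. In GPX4 both parts were higher in monosomes without overlap, 1328 against 36.9 CPM before and 799 against 31.1 CPM after, ratios of 36.0 and 25.7. GPX1 did likewise, with ratios of 21.7 before and 9.37 after. In SELENOF, with the downstream ORF as the later part, the ratios were alike, 0.644 before and 0.672 after. In SELENOK the later ORF, of 1 sense codon, had the larger ratio, 4.69 against 1.95.

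Starvation was compared with log phase within each fraction, and the 2 starvations share the log phase libraries. Without a block none of the 10 genes and 0 of 4851 units passed in any of the 4 comparisons, which is 0% called. At an unadjusted p under 0.05 there were 424 units for amino acid starvation in polysomes, 240 in monosomes, 5 for serum starvation in polysomes and 85 in monosomes. DESeq2 called 88 and 29 units after amino acid starvation in polysomes and monosomes and 0 after serum starvation in either fraction.

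GPX4 had the lowest log2 values of the 9 genes other than SELENOW after amino acid starvation. In polysomes it stood at 31.3 and 41.2 CPM against 128 and 77.6 in log phase, a log2 change of -1.50 (SE 0.60, adjusted p = 0.519), and with the replicate block -1.40 (adjusted p = 0.0492). In monosomes it stood at 1093 and 817 CPM against 4902 and 2290, a log2 change of -1.91 (SE 0.60, adjusted p = 0.95), and with the block -1.85 (adjusted p = 0.0385). In both fractions the 2 starved libraries lay below the 2 log phase libraries. How many of all units separate in this way was not counted. With the block GPX4 was the only one of the 10 called, against 4.95% of all units called lower in polysomes and 0.371% in monosomes. DESeq2 called the monosome change (adjusted p = 0.00837).

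The other members gave no call after amino acid starvation with or without the block. GPX1 had log2 changes of -1.08 (SE 0.54) in polysomes and -1.12 (SE 0.54) in monosomes, with adjusted p of 0.571 and 0.986. TXNRD1 had 0.37 (SE 0.52) in polysomes and -0.01 (SE 0.57) in monosomes. SELENOW had 29 footprints in log phase monosomes and 2 after amino acid starvation, and no test is drawn from them. The median log2 change of the 9 other genes was -0.72 in polysomes and -0.01 in monosomes, beside -0.09 and -0.01 over all units.

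After serum starvation no member passed with or without the block, which called 0% of all units in polysomes and 0.0206% in monosomes. GPX4 had log2 changes of -0.87 (SE 0.58) in polysomes and -1.29 (SE 0.59) in monosomes, with an adjusted p of 1 in each. In monosomes the fitted value was below 0 for 9 of the 9 genes other than SELENOW, with a median of -0.71, beside 49.5% of all units and a median of 0.01; TXNRD1 (-0.08) and SELENOS (-0.03) were near 0 and none passed. In polysomes the median of the 9 genes was -0.25. SELENOW had 5 footprints in serum-starved monosomes against 29 in log phase.

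Whether starvation moved a gene between the fractions was tested as a difference of log2 ratios, starved minus log phase. No member passed, with the block (1.18% of all units for amino acid starvation, 0.0206% for serum starvation) or without it (0%). At an unadjusted p under 0.05 there were 198 units for amino acid starvation and 40 for serum starvation, and DESeq2 called 33 and 0. For GPX4 the change was -0.41 (SE 0.83) on the log2 scale after amino acid starvation and -0.42 (SE 0.82) after serum starvation. For SELENOH it was 0.09 (SE 0.79) and -0.07 (SE 0.86).

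**Figure D4:**
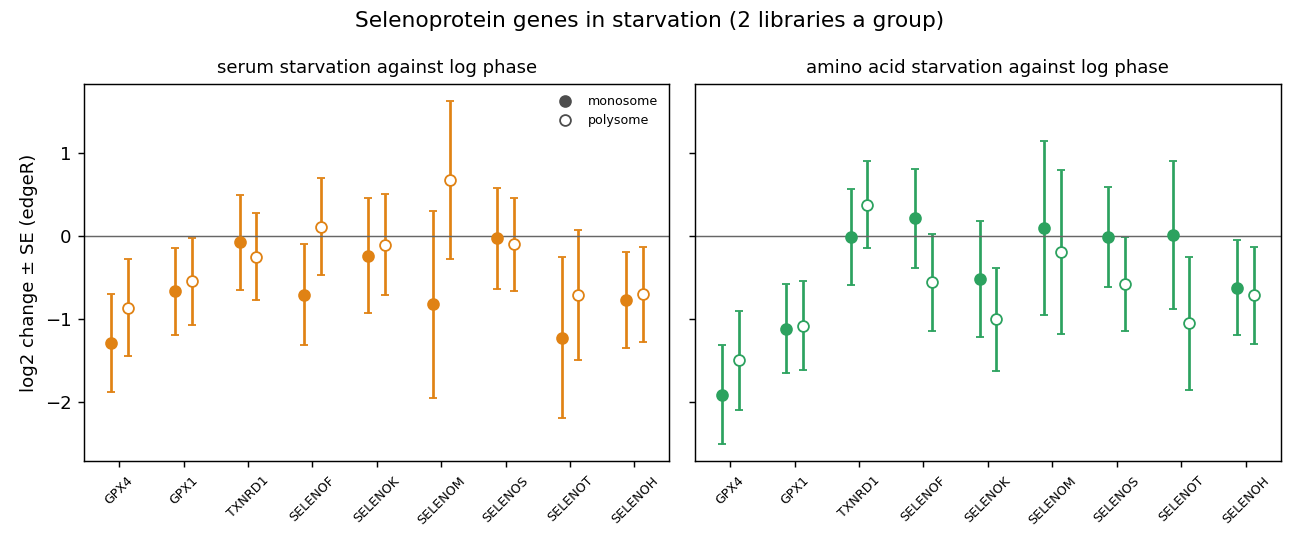
Log2 change with its standard error of 9 genes after serum starvation (left) and amino acid starvation (right) against log phase, monosome filled and polysome open, from the model without a block, in which none passes. GPX4 is lowest in both fractions after amino acid starvation, at -1.91 and -1.50; SELENOW is left out for its low counts.

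Other genes of the pathway were looked at by list, over the 3 conditions, in which 17.1% of all units were called higher and 21.7% lower; the counts below are to be read against those shares. Of 15 other selenoprotein genes 4 had a coding ORF and 3 were tested over the 3 conditions, and 1 was higher and 1 lower in monosomes. MSRB1, a methionine sulfoxide reductase, was higher (log2 1.69, SE 0.32, adjusted p = 0.00116), and SEPHS2, the enzyme that makes the selenium donor, was lower (log2 -3.30, SE 0.45, adjusted p = 9.44e-05). SELENOP, the secreted selenium carrier, had 0.17 (SE 0.28). Of 10 genes of selenocysteine incorporation 5 were tested and 1 passed: RPL30, a ribosomal protein that binds the recoding hairpin, was higher (log2 1.11, SE 0.37, adjusted p = 0.0271). TRNAU1AP, which associates with the selenocysteine tRNA, had -0.84 (adjusted p = 0.105), or -0.73 (adjusted p = 0.0075) with the block, SARS1 had 0.15 and EIF4A3 had -0.10.

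Of 7 relatives that carry no selenocysteine 3 were tested and 2 were higher. MIEN1, a relative of SELENOW, had a log2 ratio of 4.71 (SE 0.37, adjusted p = 9.01e-07) and SEPHS1 0.77 (SE 0.25, adjusted p = 0.0244), while GPX8, a relative of the glutathione peroxidases, had -0.35 (SE 0.33, adjusted p = 0.417). Of 12 genes of the glutathione and thioredoxin system 8 were tested, 1 was higher and 4 were lower. GLRX5, a mitochondrial glutaredoxin, was higher (3.60, adjusted p = 3.32e-05), and GLRX3 (-1.28, adjusted p = 0.00455), TXN (-1.46, adjusted p = 0.0166), TXNL1 (-1.55, adjusted p = 0.0193) and GSR, glutathione reductase (-0.86, adjusted p = 0.027), were lower, as was the thioredoxin reductase TXNRD1. Of 11 ER quality control partners 4 were tested and 1, DERL1, a partner of SELENOS, was lower (-1.46, adjusted p = 0.00367), and DERL2, NPLOC4 and UFD1 had -0.84, -0.56 and -0.52. With the block DERL2 was called too (-0.81, adjusted p = 0.0183). In the 4 comparisons of starvation with log phase no gene of these lists passed without the block. With it, after amino acid starvation in polysomes, NCL, which also binds the recoding hairpin, was higher (log2 1.77, adjusted p = 0.0164), and RPL30 (-1.84, adjusted p = 0.0131) and GLRX, a cytosolic glutaredoxin (-2.07, adjusted p = 0.0203), were lower.

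The 5 genes outside the class whose log2 CPM followed that of GPX4 most closely over the 12 libraries were TMA7 (Pearson r 0.992), CAMTA1 (0.989), RPL41 (0.989), SIVA1 (0.989) and ARL6IP4 (0.987). The points share the division into fractions and the depth that goes with it, so these values are a description only.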

How the data were processed

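The authors deposited 1 table of 149028 ORFs from the ORF caller named in the file's title (PRICE), with an expected count per library and the caller's p-value per ORF, which the authors deposited too and which here only forms a stricter set. Per the submitters' processing notes Bowtie 1.0 and hg38 were used, in roles not given in the sources used here. Per the labels' protocols libraries had 14 PCR cycles and 75 nt reads. Expected counts are an estimate that divides footprints among overlapping ORFs of different reading frames. Overlapping ORFs of the same frame each carry the footprints of the codons they share. In TXNRD1 the ORF ending at the stop held 5247.9 and the ORF spanning it 5232.

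Each codon was counted once, coding types first, which kept 7031 coding ORFs in 6375 gene identifiers. Names came from RefSeq by position; 141 identifiers were split by gene, SELENOH among them. Sums were rounded. edgeR 4.0.16 in R 4.3.3 (TMM, filterByExpr with 10 counts and a total of 15, quasi-likelihood, 6 groups, no block, two-sided, Benjamini-Hochberg over 4851 units per contrast, threshold 0.05) was the model; the common biological coefficient of variation was 0.435. Levels per kb use the kept ORF length. Shares were compared by exact permutation in Python 3.11.15 with SciPy 1.17.1. Both were tested on simulated data.

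The letters of the columns served as replicate numbers, which no label ties to the numbers in the titles. Over genes, the difference of B from A correlated in all 15 pairs of groups (r of 0.159 to 0.866), so the letters were treated as pairing and a blocked value is given where it changes a call.

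The genes, lists and tests were chosen with earlier results of these data known. Named were the 10 genes in every contrast, from each list any gene that passed and the 4 with the lowest p for monosome against polysome, and the 5 genes most like GPX4. Alternatives were DESeq2 1.42.0, other scalings and filters, the block, the compared groups alone, stricter ORF sets and leaving out each library. The exchange within letter pairs for the share after the stop, the comparison with nested ORFs of other genes, the shares in the last codons, the levels on each side of the stop and the length classes were added after the data were seen. No genome or protein sequence was used here.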

Additional observations from a re-analysis of the deposited data

Results flagged for a closer look

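SELENOS had opposite directions in log phase and amino acid starvation in both libraries of each. Its mean polysome level was above its mean monosome level by 29.4 CPM in log phase (monosome minus polysome -29.4), and its mean monosome level was above by 30.5 CPM after amino acid starvation, a difference between the conditions of -59.9 CPM. The test of that difference in the edgeR model gave 0.57 on the log2 scale (SE 0.83, adjusted p = 0.999).

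SELENOK held a downstream ORF, outside the coding ORFs that were compared, with more footprints than all its coding ORFs together: 1087 against 747.9. This ORF has 39 nt and the start codon ATG and lies at chr3:53885371-53885409. It held 23.1 footprints in the monosome libraries and 1063.9 in the polysome libraries, and the B library exceeded the A library in all 6 groups (354.7 against 58.9 in log phase polysomes). The caller's p-value in the authors' table was 0.062.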

How the results depend on the processing

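Counts of genes here are out of those of the 10 that could be tested. Unless stated, they include SELENOW, which only log phase monosomes admitted, so they are a description. When 1 library was left out, the log2 ratio over the 3 conditions ran from 4.51 to 5.05 in GPX4 and from 3.36 to 3.91 in GPX1. It ran from 3.50 to 4.04 in SELENOH, from 1.76 to 3.08 in SELENOM, from 0.75 to 1.39 in SELENOK and from -1.73 to -1.04 in TXNRD1. Of 193 gene values under alternatives in that comparison 163 kept their direction and side of the threshold, and no called value changed sign in any contrast. With CDS-type ORFs alone only SELENOF could be tested and 0 genes were called in each of the 4 comparisons of fractions. Of all units under that setting, 41.4% were called over the 3 conditions, 15.8% in log phase, 9.84% after serum starvation and 13.2% after amino acid starvation. With ORFs of caller p under 1e-4, which leaves GPX4, SELENOS and TXNRD1, 2 were called over the 3 conditions and 1 in each single condition. In that set 29.6% of all units were called over the 3 conditions, 5.27% in log phase, 2.24% after serum starvation and 3.71% after amino acid starvation. With the replicate block 8 were called between the fractions in log phase (34.3% of all units), 7 after serum starvation (28.7%) and 7 after amino acid starvation (29.1%). For amino acid starvation against log phase the block called 1 in polysomes (10.2%) and 1 in monosomes (0.948%). For amino acid-starved monosomes against polysomes the count was 6 with the compared groups alone (17.9% of all units called), 5 with DESeq2 (13.7%) and 1 to 4 with 1 library left out (1 without polysome library B, where 0.307% of all units were called). For amino acid starvation in monosomes it was 2 with the compared groups alone (3.47% of all units) and 1 with DESeq2 (0.598%).

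With exchange within letter pairs, the replicate block of the share after the stop, the GPX4 difference of -9.15 points passed (exact permutation p = 0.0312), and no other call changed. Leaving out 1 library moved the difference in the share after the stop from -23.8 to -14.2 points in GPX1, from -2.82 to 1.25 in SELENOF and from 2.96 to 7.17 in SELENOK, which passed without serum-starved monosome library B (exact permutation p = 0.0278). The share with ORFs of caller p under 1e-4 was not run, since no gene keeps an ORF on both sides. RLE scaling moved the median log2 ratio of all units by 0.14 over the 3 conditions and by 0.20 in log phase. The cause of these differences was not tested. Low counts limit SELENOW, SELENOT and SELENOM most.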
